A study of Mus musculus with 12 samples.

Results

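Plus-end tracking proteins gather at the growing tips of microtubules. EB proteins recognize the growing end directly and recruit most of the others, and the CLIP proteins Clip1 and Clip2 bind EB proteins and the tyrosinated tail of alpha-tubulin through CAP-Gly domains. Clip3 belongs here by family, while its protein is described at the trans-Golgi network and plasma membrane. CLASP proteins stabilize microtubules at the cell cortex and at the Golgi, and Dctn1, the large subunit of dynactin, carries a CAP-Gly domain of its own and links plus ends to the motor dynein. In kidney tubule epithelium microtubules order the apical and basal transport routes and build the axoneme of the primary cilium, the organelle in which the polycystins encoded by Pkd1 and Pkd2 are found. The 10 genes described here are the 4 CLIP genes (Clip1, Clip2, Clip3, Clip4), the 2 CLASP genes (Clasp1, Clasp2), the 3 EB genes (Mapre1, Mapre2, Mapre3) and Dctn1, out of 47642 genes listed in the table, and were found by the Ensembl identifiers of these symbols.

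The set was chosen by a measured value: Clip3 had nearly disappeared from both mutants. The values of Clip3 are therefore given as a description, without a test, in every comparison.

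mIMCD3 is a mouse inner medullary collecting duct line made continuously proliferating by the early region of SV40. RNA was sequenced from wild-type cells (Wt), from 1 Pkd1-/- clone and from 1 Pkd2-/- clone, with 4 libraries of each genotype, all harvested 4 days after full confluency without further treatment. The Pkd1-/- clone carries a pair of CRISPR-made deletions of almost the whole gene on chromosome 17 (24550055 to 24594963 on 1 allele, 24550106 to 24594903 on the other), and the Pkd2-/- clone carries a TALEN-made deletion of part of Pkd2 on chromosome 5 (104478281 to 104490878). The libraries of a genotype are dishes of the same line, so p-values measure the spread between dishes and not between clones, and genotype and clone cannot be told apart.

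The values are normalized counts, that is, reads per gene divided by the size factor of the library and rounded, and they sum to between 25966273 and 28027792 per library. Pkd1 averaged 782 ± 112 normalized counts (SD, n = 4) in Wt, 41.8 ± 8.81 in Pkd1-/- and 1209 ± 202 in Pkd2-/- cells, and Pkd2 averaged 3971 ± 451, 2711 ± 133 and 3986 ± 124. The Pkd2 deletion covers part of the gene only, so its total count does not check the Pkd2-/- label. Of 13 collecting duct epithelium markers, Krt8, Krt18, Epcam, Cdh1, Cdh16, Pax2, Pax8 and Hoxb7 had at least 1194 normalized counts in every library. The others were low or absent: Gata3 ranged from 42 to 430 and Scnn1a from 63 to 131 over the libraries. The water channel gene Aqp3 was at 6 or less, and the water channel gene Aqp2 and Tfap2b were at 0 in all libraries. Endothelial, fibroblast and neuronal markers each summed to at most 99 normalized counts in any library. Immune markers summed to 428 to 1000 over the libraries, mostly from Csf1r, and proximal tubule markers to 25 to 1217, mostly from Lrp2. Proliferation markers moved with genotype: the 12 genes summed to 90349 to 96990 in Wt, 105266 to 108744 in Pkd1-/- and 100404 to 105189 in Pkd2-/- libraries, with 9 of 12 higher and 0 lower in Pkd1-/- cells, also at an unadjusted p, and 6 higher and 1 lower in Pkd2-/- cells. In limma, 75% and 58.3% of these markers passed, beside 27.1% and 42.3% of all genes. The part of these markers in the results that follow was not tested. Less RNA per cell and fewer cells with the RNA cannot be told apart in such bulk samples.

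The 4 CLIP genes start from quite different sequences, which are shown because this family holds a gene at 0 or 1 in every library, a gene that is nearly lost and a pair of genes that remained well expressed. Each line gives the 250 bases before the RefSeq transcription start (GRCm38.p6), 5′ to 3′ on the strand of the gene, with every CG dinucleotide in capitals. Clip1 lies at chr5:123684362-123684611 on the minus strand, Clip2 at chr5:134552435-134552684 on the minus strand, Clip3 at chr7:30291445-30291694 on the plus strand and the first of 3 starts of Clip4 at chr17:71769441-71769690 on the plus strand.
Clip1: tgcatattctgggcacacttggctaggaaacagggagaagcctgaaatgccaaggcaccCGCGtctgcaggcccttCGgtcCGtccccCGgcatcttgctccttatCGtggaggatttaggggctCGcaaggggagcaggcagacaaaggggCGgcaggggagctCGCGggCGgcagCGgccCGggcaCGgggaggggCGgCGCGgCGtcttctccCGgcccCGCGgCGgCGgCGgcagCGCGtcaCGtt
Clip2: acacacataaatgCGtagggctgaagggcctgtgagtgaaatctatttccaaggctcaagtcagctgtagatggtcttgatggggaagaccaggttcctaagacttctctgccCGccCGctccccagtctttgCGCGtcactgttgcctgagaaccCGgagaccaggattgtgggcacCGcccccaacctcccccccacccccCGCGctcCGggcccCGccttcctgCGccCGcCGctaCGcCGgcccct
Clip3: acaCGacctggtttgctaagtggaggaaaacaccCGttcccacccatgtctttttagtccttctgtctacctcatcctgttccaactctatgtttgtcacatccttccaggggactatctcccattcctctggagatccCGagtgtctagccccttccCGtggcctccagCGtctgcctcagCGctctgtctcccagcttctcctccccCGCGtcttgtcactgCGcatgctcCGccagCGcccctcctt
Clip4: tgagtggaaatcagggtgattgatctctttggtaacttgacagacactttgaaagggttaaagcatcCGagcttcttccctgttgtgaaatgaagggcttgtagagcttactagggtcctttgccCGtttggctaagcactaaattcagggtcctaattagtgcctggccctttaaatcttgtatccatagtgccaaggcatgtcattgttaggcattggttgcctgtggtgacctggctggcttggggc

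The Clip3 window held 11 CG dinucleotides, which 35.6% of 32851 RefSeq mouse promoter windows of this length equal or exceed, and its GC content was 57.2%. Clip1 held 27 (8.56% of windows have as many), Clip2 held 16 (25.4%) and the Clip4 window held 2 (81.2%). The letters GGGCGG, searched on both strands, were found in the Clip1 and Clip2 windows and in 32.7% of all windows, and not in those of Clip3 and Clip4. CCAAT, also on both strands, was found in the first Clip4 window only and in 33.8% of all windows, and TATAAA in none of the 4 and in 12.4% of all. A match is a description of the letters and not of a bound factor. In the GENCODE annotation Clip1 reaches to 123684618 and Clip4 begins at 71768473, so the Clip1 window and the first Clip4 window lie inside the annotated genes. The windows of Clip2 and Clip3 lie before theirs. The windows are thus not alike in position, and their relation to the levels was not tested.

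Clip3 encodes a CLIP-related protein of the trans-Golgi network and plasma membrane that binds the kinase Akt and takes part in the traffic of the glucose transporter encoded by Slc2a4. The gene (ENSMUSG00000013921) lies on chromosome 7 from 30291728 to 30308367 on the plus strand, with 3935 annotated exon bases. Its normalized counts were 1450, 1336, 1371 and 1616 in the 4 Wt libraries, 19, 16, 23 and 14 in the Pkd1-/- libraries and 1, 5, 1 and 2 in the Pkd2-/- libraries. No library of one genotype reached into the range of another.

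The Wt mean of Clip3 of 1443 ± 125 (SD, n = 4) stood against 18 ± 3.92 in Pkd1-/- cells, 1.25% of Wt or 80.2-fold lower by the ratio of means, and against 2.25 ± 1.89 in Pkd2-/- cells, 0.156% of Wt or 641-fold lower. The second ratio rests on 9 normalized counts in 4 libraries, 3 of which held at most 3. The lowest Wt library still exceeded the highest Pkd1-/- library 58.1-fold and the highest Pkd2-/- library 267-fold. Without Pkd2-/- replicate 2, the library with 5, the Pkd2-/- mean was 0.0924% of Wt.

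Between the mutants the mean of Clip3 was lower in Pkd2-/- cells, with a difference of −2.68 on the log2(normalized count + 1) scale. This difference is a description too, since both mutants' values chose the set, and near 0 it depends on the pseudocount, with a range of −3.03 to −1.68 over the alternatives.

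**Figure D1:**
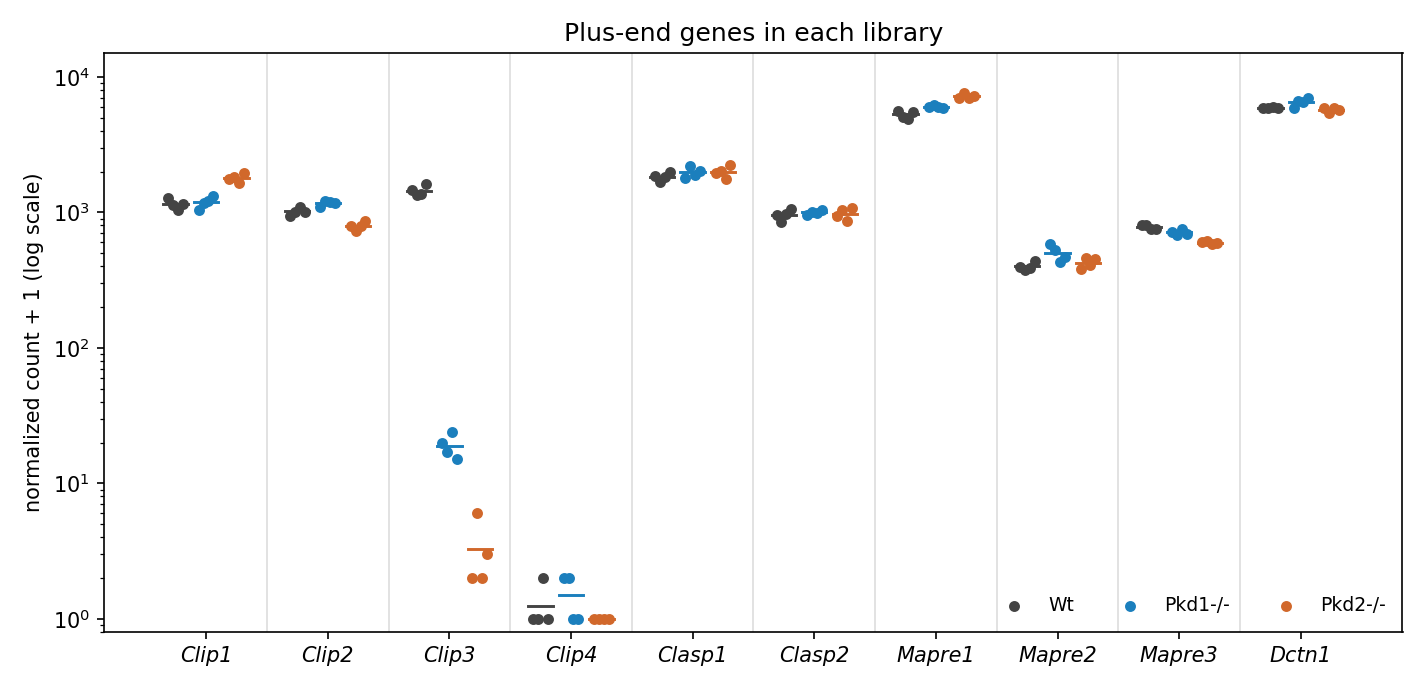
Normalized count + 1 of the 10 genes in each of the 12 libraries on a log axis, with Wt in grey, Pkd1-/- in blue and Pkd2-/- in orange, and bars at the group means of the plotted values. Clip3 falls from above 1300 in Wt to at most 23 in Pkd1-/- and at most 5 in Pkd2-/- libraries, Clip4 is at 0 or 1 throughout, and the other 8 genes stay within the same order of magnitude in the 3 genotypes.

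Among the other 9 genes no change came near this size. Clip4 was at 0 or 1 in every library and was not tested, which left 8 of the 9. In Pkd1-/- against Wt, 3 of the 8 were higher and 0 lower at a Benjamini-Hochberg adjusted p under 0.05 in limma, where 27.1% of the 18552 genes tested passed (13.6% higher and 13.5% lower). At an unadjusted p under 0.05, 4 were higher and 1 lower. In Pkd2-/- against Wt, 2 were higher and 2 lower, where 42.3% of all genes passed (20.0% higher and 22.3% lower). The shares of these genes that passed are near those of all genes.

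None of the 8 reached the study's additional limit of an absolute log2 fold change of 1, which 6.24% and 9.62% of all genes did. The ranges of the genotypes did not overlap for 1 of the 8 genes in Pkd1-/- against Wt (27.1% of all genes) and for 5 of the 8 in Pkd2-/- against Wt (37.2%). The first of these counts was 3 after rescaling all libraries to the same upper quartile and without Wt replicate 4, Pkd1-/- replicate 1 or Pkd1-/- replicate 3, and 2 without Wt replicate 3. Both comparisons use the same Wt libraries and are not independent. For a single gene, the exact permutation test of 4 against 4 cannot give a p below 0.0286, two-sided.

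Clip1, the founding plus-end tracking protein, lies on chromosome 5 (123577795 to 123684618). It measured 1285, 1135, 1032 and 1151 in Wt, 1036, 1168, 1208 and 1326 in Pkd1-/- and 1754, 1825, 1642 and 1966 in Pkd2-/- libraries. All Pkd2-/- libraries were above all others, while Wt and Pkd1-/- overlapped. The log2 difference in Pkd2-/- cells was 0.64 (SE 0.08, adjusted p = 1.77e-06), and that in Pkd1-/- cells was 0.04 (95% interval −0.12 to 0.20, adjusted p = 0.766).

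Clip2, which tracks plus ends like Clip1 but lacks its dynactin-binding end, lies on the same chromosome (134489383 to 134552434). It measured 946, 1012, 1087 and 1012 in Wt, 1085, 1213, 1192 and 1179 in Pkd1-/- and 798, 725, 787 and 858 in Pkd2-/- libraries. The Pkd2-/- libraries were the 4 lowest, and the Pkd1-/- libraries overlapped with Wt by 1 library. It was lower in Pkd2-/- cells by a log2 difference of −0.36 (adjusted p = 0.00013) and higher in Pkd1-/- cells by 0.20 (adjusted p = 0.0212). The Pkd1-/- call was lost without Wt replicate 1 (adjusted p = 0.0724) and without Pkd1-/- replicate 2 (0.0692), 3 (0.059) or 4 (0.0503). The difference between the mutants was −0.56 (SE 0.06, adjusted p = 5.31e-07), with every Pkd2-/- library below every Pkd1-/- library.

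Per kilobase of annotated exon, Clip3 was the most abundant CLIP transcript of Wt cells. On this scale the 4 CLIP genes summed to 655 ± 31.2 in Wt, of which Clip3 made up 55.9%, Clip2 29.9% and Clip1 14.2%. The sum was 325 ± 18.5 in Pkd1-/- and 298 ± 18.2 in Pkd2-/- cells. Without Clip3 it was 288.5 ± 3.12 in Wt, 321 ± 18.8 in Pkd1-/- and 298 ± 18.2 in Pkd2-/- cells, with overlapping ranges. The makeup of the sum differed: Clip1 made up 29.3% of the CLIP sum in Pkd1-/- and 48.6% in Pkd2-/- cells, Clip2 69.2% and 51.2%. With the length of the longest coding transcript instead, Clip3 made up 52.7% in Wt, and in Pkd2-/- cells Clip1 (64.8%) exceeded Clip2 (35.1%), so the order of these genes in Pkd2-/- cells depends on the length used. The sum without Clip3 was then 391 ± 5.68 in Wt and 452 ± 28.7 in Pkd2-/- cells, ranges that did not overlap.

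**Figure D2:**
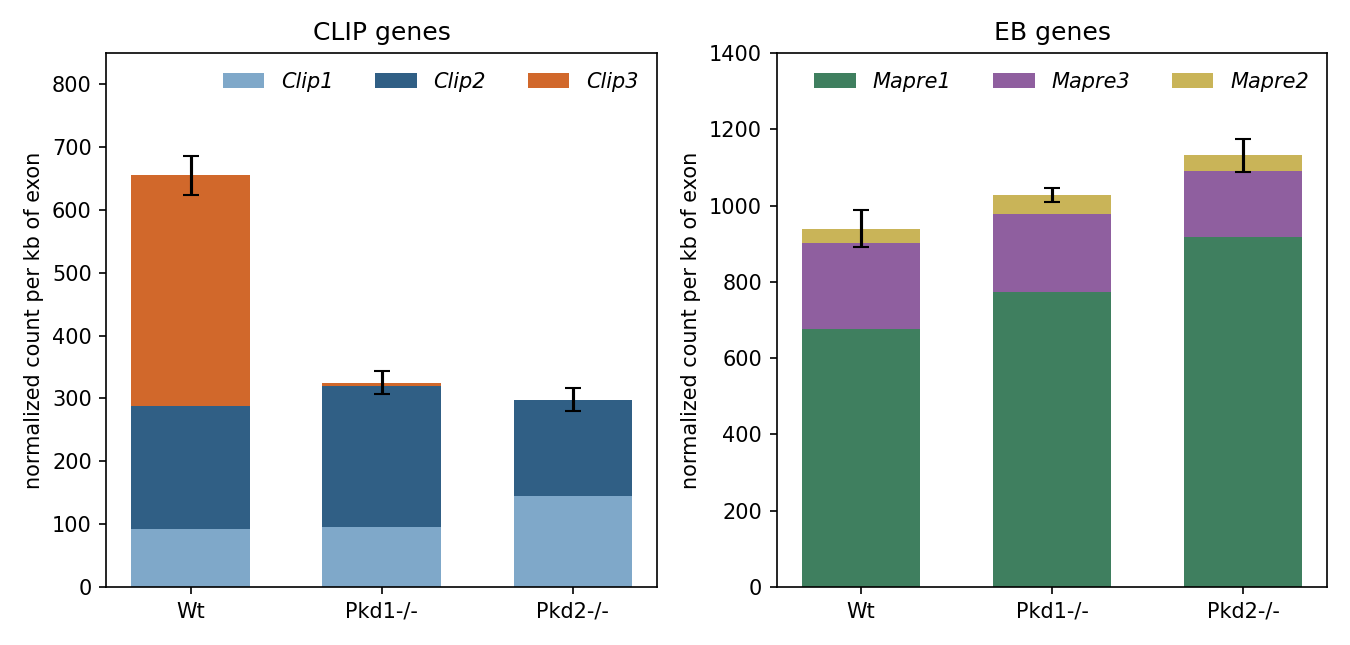
Mean normalized count per kb of annotated exon in the 3 genotypes (n = 4 libraries each), stacked by gene for the CLIP genes on the left and the EB genes on the right, with the SD of the sum as error bars. Clip4 is left out of the plot because its level is below 0.1 in every genotype. The CLIP sum falls from 655 to 325 and 298 through Clip3, and the EB sum rises from 939.5 to 1027 and 1132 through Mapre1.

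Mapre1 encodes EB1, the most abundant EB protein of most cells, and was the most abundant EB transcript here. The gene lies on chromosome 2 (153741274 to 153773310). It measured 5614, 5070, 4877 and 5532 in Wt, 6030, 6204, 5999 and 5911 in Pkd1-/- and 6975, 7567, 6923 and 7205 in Pkd2-/- libraries. The 3 genotypes did not overlap, with Wt lowest and Pkd2-/- highest. The log2 difference was 0.20 (SE 0.05, adjusted p = 0.00531) in Pkd1-/- and 0.44 (SE 0.05, adjusted p = 6.28e-07) in Pkd2-/- cells, and 0.25 (adjusted p = 0.00039) between the mutants. The genes of chromosome 2 were shifted in the same direction in Pkd2-/- cells: the median log2 difference of its 1058 genes with a mean of at least 10 was 0.33, and that of the 123 within 5 Mb of Mapre1 was 0.28, against −0.01 for all genes. In Pkd1-/- cells these medians were 0.05 and 0.05. The part of this shift in the change of Mapre1 was not tested.

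Mapre3 encodes EB3, which is known from muscle, neurons and ciliated cells, and lies on chromosome 5 (30814641 to 30866106). It measured 805, 808, 756 and 749 in Wt, 715, 683, 754 and 688 in Pkd1-/- and 598, 614, 586 and 593 in Pkd2-/- libraries. The Pkd2-/- libraries were below all others, and 1 Pkd1-/- library reached into the Wt range. The log2 difference was −0.38 (SE 0.06, adjusted p = 2.39e-05) in Pkd2-/- cells, −0.13 (95% interval −0.26 to −0.01, adjusted p = 0.0938) in Pkd1-/- cells and −0.25 (adjusted p = 0.0015) between the mutants.

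Mapre2 encodes EB2, which binds CLIP and dynactin proteins weakly, and lies on chromosome 18. It measured 394, 377, 389 and 433 in Wt, 584, 528, 430 and 467 in Pkd1-/- and 378, 460, 406 and 448 in Pkd2-/- libraries. Wt and Pkd1-/- overlapped by 1 library on each side, and Wt and Pkd2-/- overlapped widely. It was higher in Pkd1-/- cells by a log2 difference of 0.33 (SE 0.09, adjusted p = 0.0131), a call that was lost without Pkd1-/- replicate 1 (0.25, adjusted p = 0.0532). The difference in Pkd2-/- cells was 0.08 (95% interval −0.11 to 0.28, adjusted p = 0.515).

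Together the EB genes summed to 939.5 ± 48.8 per kilobase of exon in Wt, 1027 ± 18.3 in Pkd1-/- and 1132 ± 43.7 in Pkd2-/- cells. Mapre1 made up 71.8%, 75.2% and 81.1% of this sum and Mapre3 24.0%, 20.0% and 15.3%. The share of Mapre1 ranged from 70.6% to 73.2% over the Wt libraries, from 74.5% to 76.1% over the Pkd1-/- libraries and from 80.9% to 81.3% over the Pkd2-/- libraries, without overlap. By the longest coding transcript the shares of Mapre1 were 59.7%, 63.4% and 70.9%, in the same order.

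Clasp1 (chromosome 1) and Clasp2 (chromosome 9) did not pass the test in any of the 3 comparisons. Clasp1 measured 1862, 1679, 1815 and 1981 in Wt, 1801, 2213, 1872 and 2024 in Pkd1-/- and 1934, 2004, 1748 and 2250 in Pkd2-/- libraries. Clasp2 measured 951, 849, 976 and 1060 in Wt, 959, 1002, 995 and 1047 in Pkd1-/- and 932, 1042, 858 and 1081 in Pkd2-/- libraries. The genotypes overlapped for both genes. The 95% intervals of the log2 differences were −0.05 to 0.27 for Clasp1 in each mutant, and −0.09 to 0.22 for Clasp2 in Pkd1-/- and −0.13 to 0.19 in Pkd2-/- cells, so a change of more than about 0.27 in either direction lies outside all of them.

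Dctn1, on chromosome 6 (83165920 to 83200117), measured 5900, 5926, 5965 and 5919 in Wt, 5858, 6673, 6476 and 6981 in Pkd1-/- and 5845, 5442, 5843 and 5716 in Pkd2-/- libraries. All Pkd2-/- libraries were below all Wt libraries by a small margin, but the log2 difference of −0.05 did not pass the test (95% interval −0.16 to 0.05, adjusted p = 0.422). The log2 difference in Pkd1-/- cells was 0.13 (adjusted p = 0.0615) and passed without Pkd1-/- replicate 1, the lowest library of its group (0.18, adjusted p = 0.00586). Between the mutants Dctn1 was lower in Pkd2-/- cells (−0.18, SE 0.05, adjusted p = 0.00484).

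In Pkd2-/- against Pkd1-/-, Clip1 and Mapre1 were higher, and Clip2, Mapre2, Mapre3 and Dctn1 were lower, 6 of the 8 genes other than Clip3 that were tested, where 46.3% of all genes passed (21.9% higher and 24.3% lower). None of the 8 reached an absolute log2 difference of 1, as 11.8% of all genes did. The ranges of the mutants did not overlap for 5 of the 8 (41.8% of all genes). The weakest of these calls was Mapre2 (−0.24, adjusted p = 0.0413), which was lost without Pkd1-/- replicate 1 (adjusted p = 0.158) or 2 (0.108), without Pkd2-/- replicate 1 (0.134) or 3 (0.0881), and in 3 other alternatives.

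**Figure D3:**
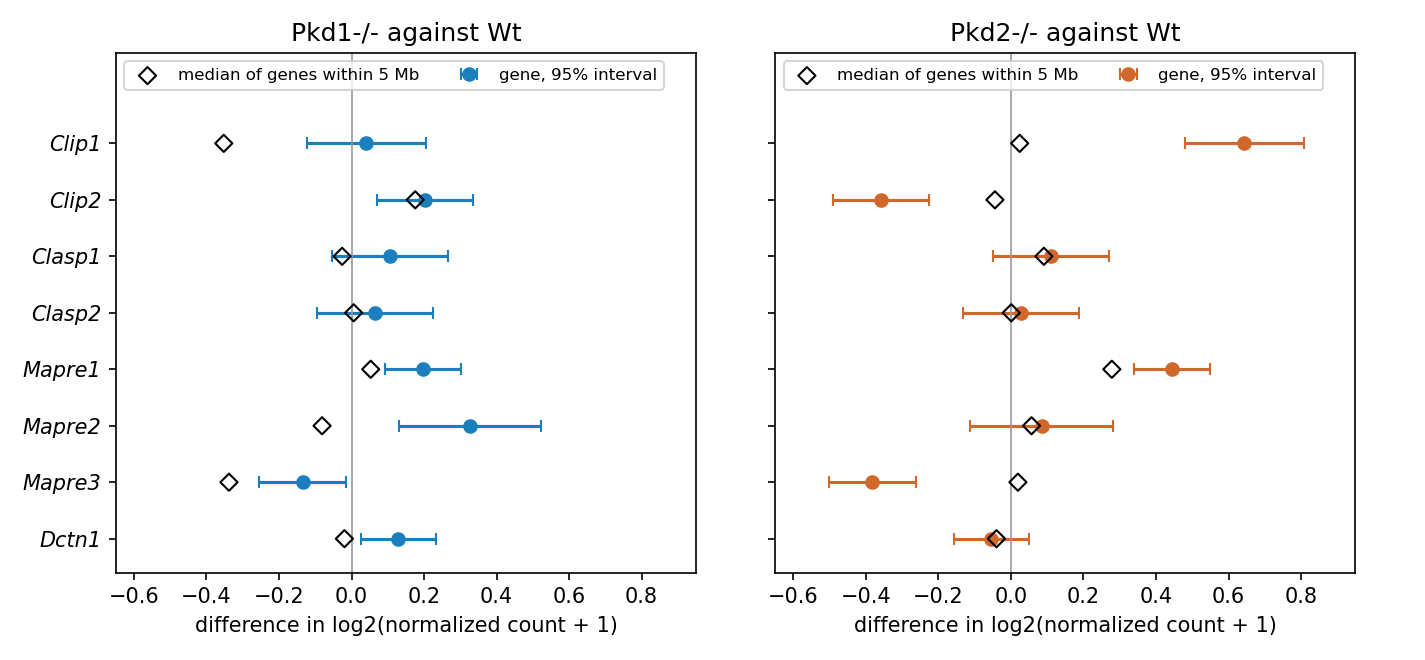
Difference in log2(normalized count + 1) of the 8 tested genes other than Clip3 in Pkd1-/- (left) and Pkd2-/- cells (right) against Wt, with 95% intervals from limma, and open diamonds at the median of the other genes within 5 Mb. Clip1 and Mapre1 lie highest in Pkd2-/- cells at 0.64 and 0.44, Clip2 and Mapre3 lowest at −0.36 and −0.38, and the intervals of both CLASP genes include 0.

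Clip1, Clip2 and Mapre3 all lie on chromosome 5, which was shifted in Pkd1-/- cells, with a median log2 difference of −0.18 over 923 genes. Within 5 Mb the median was −0.35 around Clip1 (104 genes), −0.34 around Mapre3 (99 genes) and 0.18 around Clip2 (127 genes) in Pkd1-/- cells, beside the genes' own differences of 0.04, −0.13 and 0.20. In Pkd2-/- cells the same medians were 0.02, 0.02 and −0.04, beside 0.64, −0.38 and −0.36. The part of these regional shifts in the members' values was not tested.

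In Wt cells the order of the levels per kilobase of exon was Dctn1 (911 ± 4.20), Mapre1 (675 ± 45.7), Clip3 (367 ± 31.7), Mapre3 (225 ± 9.06), Clip2 (195.5 ± 11.1), Clip1 (92.9 ± 8.39), Clasp1 (84.0 ± 5.72), Clasp2 (62.4 ± 5.65), Mapre2 (39.0 ± 2.38) and Clip4 at 0.03 ± 0.06. Clip1 and Clasp1 were the neighbors in this order whose Wt libraries overlapped. In Pkd2-/- cells Mapre1 (918 ± 37.5) overlapped with Dctn1 (878 ± 29.1), and Clip3, at 0.57 ± 0.48, came last but for Clip4. These overlaps depend on the length used: by the longest coding transcript Dctn1 (mean 1322) lay above Mapre1 (977) in Pkd2-/- cells. In Wt cells Clip1 (168.3 to 209.5) and Clip2 (189.4 to 217.7) then overlapped too. So did Clasp1 (163.6 to 193) and Clasp2 (151.4 to 189), and both reached into the range of Clip1. Clasp1 also reached into the range of Clip2.

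Near Clip3, 17 other annotated genes within 100 kb were listed and 11 had a mean of at least 1 normalized count. Alkbh6, which begins 350 bases past the end of Clip3, measured 657 ± 49.3 in Wt, 600 ± 29.0 in Pkd1-/- and 644 ± 44.2 in Pkd2-/- cells, and neither difference passed the test (adjusted p = 0.198 and 0.783). Thap8, whose end lies 1491 bases before the start of Clip3, was at 12 or less in every library, and Gm26810, 90839 bases before it, at 10 or less. Gm26810, Thap8, Syne4, Sdhaf1, Polr2i and the pseudogene Rps12-ps5 did not pass in either mutant. The 144 genes within 5 Mb with a mean of at least 10 had a median log2 difference of 0.01 in Pkd1-/- and −0.10 in Pkd2-/- cells.

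The gene that moved most besides Clip3 in this window was Lrfn3, a synaptic adhesion gene 47122 bases past its end. It ranged from 129 to 144 in Wt, from 31 to 61 in Pkd1-/- and from 9 to 25 in Pkd2-/- libraries, 3 ranges that did not overlap. Its log2 difference was −1.67 (SE 0.28, adjusted p = 0.000176) in Pkd1-/- and −3.09 (SE 0.28, adjusted p = 5.16e-08) in Pkd2-/- cells. Of the 11 genes, 1 was higher and 2 lower in Pkd1-/- cells (Wdr62 at 0.28, Capns1 at −0.18 and Lrfn3), and 2 were lower in Pkd2-/- cells (Lrfn3 and the tubulin chaperone gene Tbcb at −0.19). Over all genes tested, 27.1% and 42.3% passed, so these counts do not exceed what all genes show. No listed gene overlaps Clip3, and the 14 listed genes that overlap other members had means of at most 6.42 normalized counts.

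**Figure D4:**
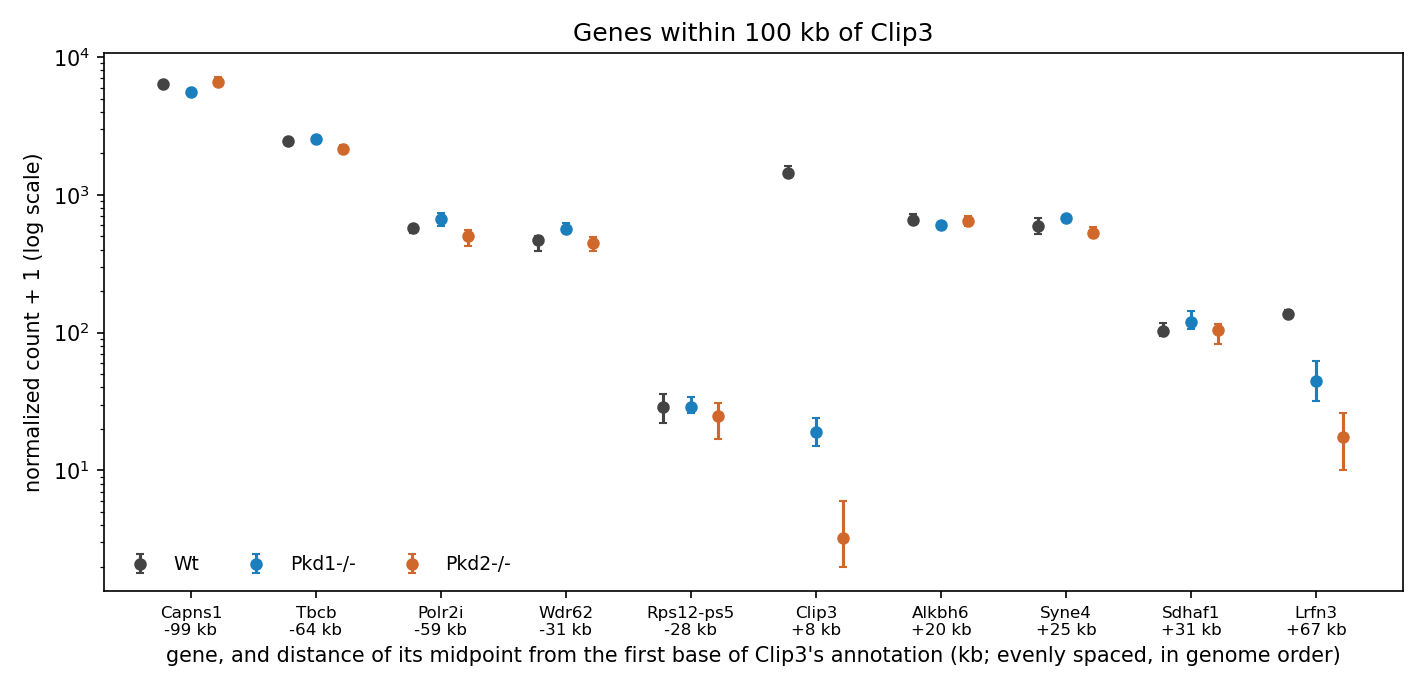
Mean normalized count + 1 on a log axis, with bars from the lowest to the highest of 4 libraries, for Clip3 and the genes within 100 kb of it that have a mean of at least 10, in genome order and labelled with the distance of their midpoint from the start of Clip3. Clip3 and Lrfn3 fall in both mutants, while Alkbh6 and Syne4 stay between 493 and 729 in all libraries.

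Over the 12 libraries, the genes whose log2 level ran most closely with that of Clip3 among 13694 genes with a mean of at least 10 were Ociad2 (Pearson's r = 0.995), Tnfaip8 (0.994), Dab2 (0.994), Klhl5 (0.992) and Mme (0.992). The points share their libraries and fall into 3 genotypes, so r describes the step between genotypes. Only Ociad2 fell to a similar degree, to 2.87% of Wt in Pkd1-/- and 0.106% in Pkd2-/- cells. Dab2, an endocytic adaptor, kept 57.0% and 44.6%, and Mme, the membrane protease neprilysin, kept 54.1% and 38.7%. By Spearman's rho the closest were Rflnb, Klhl9, Dab2, Mturn and Ugdh, of which Dab2 is shared.

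Near loss in both mutants was uncommon. Of 10646 genes with a Wt mean of at least 100, 24 fell below 5% of it in Pkd1-/- and 75 in Pkd2-/- cells, and 12 did so in both, Clip3 among them as the third by Wt level. The others with the highest Wt levels were the ubiquitin ligase gene Rnf130 (1776 in Wt, 74.5 in Pkd1-/- and 21.5 in Pkd2-/-), the selenium carrier gene Selenop (1586, 77 and 24.5), Evl, a regulator of actin filaments (680, 1.5 and 0.5), and the sialyltransferase gene St6gal1 (496, 4.75 and 1.75). None of the other 8 members tested was near this limit: their lowest share of Wt was 76.7%, for Mapre3 in Pkd2-/- cells.

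**Figure D5:**
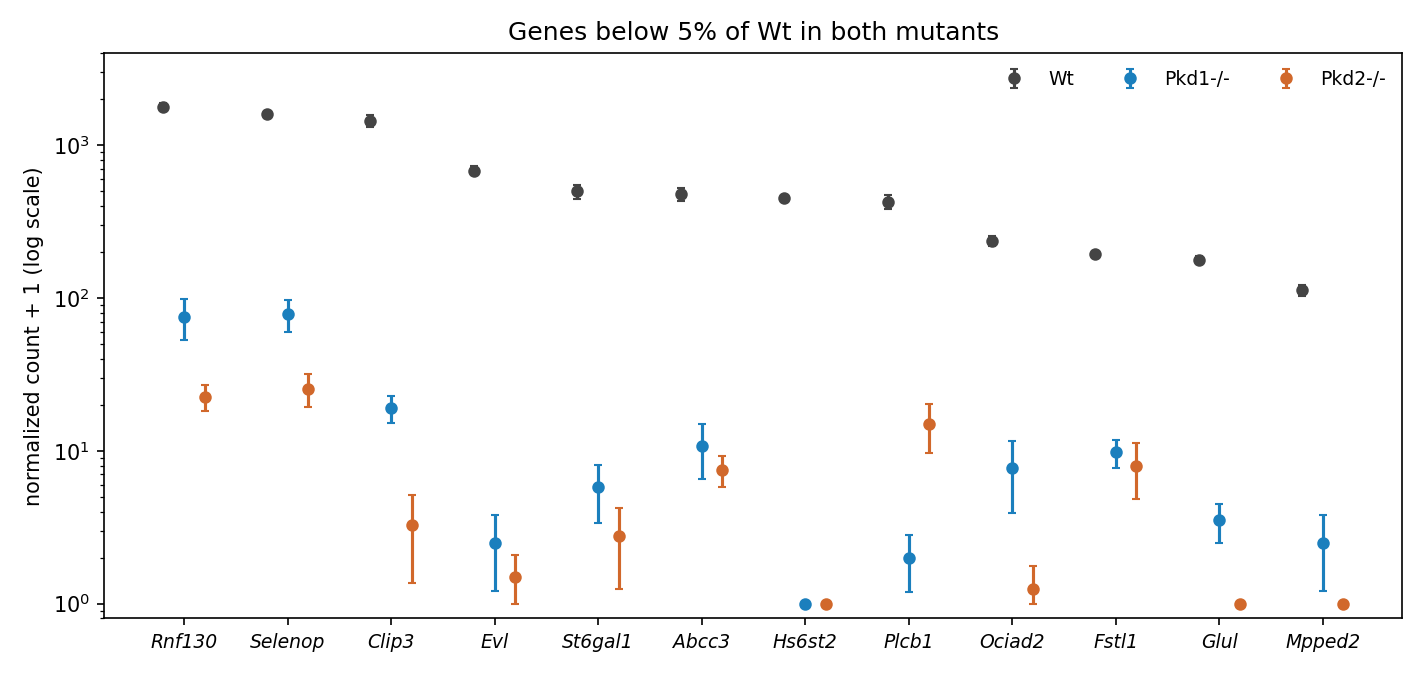
Mean normalized count + 1 with SD (n = 4) on a log axis for the 12 genes with a Wt mean of at least 100 and both mutant means under 5% of it, ordered by Wt mean. Clip3 is the third from the left, at 1443 in Wt, 18 in Pkd1-/- and 2.25 in Pkd2-/- cells.

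The wider microtubule machinery was read from lists made for this purpose. In each list the shares that passed stand beside 27.1% of all genes in Pkd1-/- and 42.3% in Pkd2-/- cells against Wt. Of 21 other plus-end tracking proteins, 19 were tested: 7 were higher and 3 lower in Pkd1-/- cells and 10 higher and 5 lower in Pkd2-/- cells (52.6% and 78.9%). Their median log2 differences were 0.17 and 0.18 beside 0.01 and −0.01 for all genes. Tacc1, which forms a complex with the microtubule polymerase Ckap5, rose from 179 ± 23.2 in Wt to 264 ± 26.2 in Pkd1-/- (log2 difference 0.56, adjusted p = 0.000895) and 581 ± 81.9 in Pkd2-/- cells (1.69, adjusted p = 5.91e-10). Nav1 rose by 0.35 and 0.48. Its relative Nav2 fell in Pkd1-/- cells, from 46.2 ± 7.63 to 25.2 ± 5.68 (−0.86, adjusted p = 0.00159), and rose in Pkd2-/- cells, to 195 ± 26.1 (2.06, adjusted p = 3.83e-08). Tacc3, of the mitotic spindle, fell by 0.29 on the log2 scale in Pkd1-/- cells and by 0.12 in Pkd2-/- cells, and Psrc1 (−0.51) and Apc2 (−0.54) fell in Pkd2-/- cells.

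Dynactin, the complex that Dctn1 belongs to, has 11 other subunit genes in the list. Of these, 3 were higher in Pkd1-/- cells, among them Capzb (0.15) and Actr1b (0.13), and 2 were lower in Pkd2-/- cells, Dctn5 (−0.24) and Dctn4 (−0.14), with median log2 differences of 0.10 and −0.06. The shares that passed, 27.3% and 18.2%, stand beside 27.1% and 42.3% of all genes. None was lower in Pkd1-/- or higher in Pkd2-/- cells (1 and 0 at an unadjusted p in limma). Between the mutants 7 of the 11 were lower in Pkd2-/- cells, as Dctn1 was, and 0 were higher at either p, with a median of −0.15 beside −0.01 for all genes. The share that passed, 63.6%, stands beside 46.3% of all genes in this comparison (21.9% higher and 24.3% lower). Of 18 tested genes of cytoplasmic dynein and its regulators, 4 were higher in Pkd1-/- cells, and 3 were higher and 5 lower in Pkd2-/- cells. These shares, 22.2% and 44.4%, are near those of all genes. The cargo adaptor genes Hook1 (0.34 and 0.61) and Bicd2 (0.33 and 0.31) rose in both mutants, the heavy chain gene Dync1h1 rose in Pkd2-/- cells (0.49, adjusted p = 0.000478), and the light chain genes Dynlt1b (−0.76, adjusted p = 1.68e-06) and Dynll1 (−0.37) fell in Pkd2-/- cells.

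Among 5 other genes with CAP-Gly domains, 0 passed limma's test in Pkd1-/- cells (1 at an unadjusted p), and Kif13b (1.26, adjusted p = 1.54e-06), Cep350 (0.34) and Tbce (0.32) were higher and Tbcb (−0.19) lower in Pkd2-/- cells. Tbce falls outside the rule for naming genes and was added after its value was seen. The CAP-Gly shares of 0% and 80% stand beside 27.1% and 42.3% of all genes. Of 7 cortical anchors of CLASP, 3 were higher and 3 lower in Pkd1-/- cells (85.7%) and 4 higher and 1 lower in Pkd2-/- cells (71.4%). The anchor genes Phldb2 and Kank1 fell in Pkd1-/- cells (−0.93 and −0.40) and rose in Pkd2-/- cells (0.25 and 0.48), Ppfibp1 rose in both (0.20 and 0.57), and Kank2 fell in Pkd2-/- cells (−0.47). These genes thus changed while Clasp1 and Clasp2 did not pass the test in either mutant.

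Of the proteins that tie Clip1 to the actin cortex, 6 of 7 were tested. In Pkd1-/- cells 1 was higher and 1 lower, and in Pkd2-/- cells 3 were higher and 2 lower. The shares that passed, 33.3% and 83.3%, stand beside 27.1% and 42.3% of all genes. Iqgap1 fell in Pkd1-/- cells (−0.31, adjusted p = 0.00361), Rac1 rose in Pkd1-/- (0.18) and fell in Pkd2-/- cells (−0.22), and in Pkd2-/- cells Cdc42 fell (−0.28) and the formin genes Diaph1 (0.38) and Fmnl2 (0.56) rose. Of 7 genes whose products act with Clip3 protein, 2 were higher in Pkd1-/- cells, and 2 were higher and 2 lower in Pkd2-/- cells. These shares of 28.6% and 57.1% stand beside 27.1% and 42.3% of all genes. Akt1 rose in Pkd1-/- cells (0.19, adjusted p = 0.00341), and the palmitoyl transferase gene Zdhhc17 fell in Pkd2-/- cells (−0.31, adjusted p = 0.00243). Slc2a4 was low, at 22.8 ± 5.91 in Wt, 64.2 ± 11.5 in Pkd1-/- (1.48, adjusted p = 0.00204) and 12.8 ± 7.04 in Pkd2-/- cells (−0.91, adjusted p = 0.0327). Tbc1d4, the Akt substrate that holds back the traffic of this transporter, was at 650 ± 71.2 in Wt, 630 ± 51.8 in Pkd1-/- and 5089 ± 320 in Pkd2-/- cells (2.97, SE 0.08, adjusted p = 6.18e-16).

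The tubulin genes supply the lattice these proteins bind. Of 12 tested alpha- and beta-tubulin genes, 2 were lower in Pkd1-/- cells, and 3 were higher and 6 lower in Pkd2-/- cells, with median log2 differences of −0.08 and −0.22, where 27.1% and 42.3% of all genes passed. Whether the list differed more in one mutant than in the other was not tested. Tuba1a went from 822 ± 69.97 in Wt to 416 ± 16.7 in Pkd2-/- cells (−0.98, adjusted p = 1.26e-09) and Tubb2a from 470 ± 30.4 to 245 ± 22.1 (−0.94), while Tubb4b rose (0.41). Tubb3 fell in Pkd1-/- cells, from 122 ± 16.6 to 68.0 ± 6.83 (−0.84), and rose in Pkd2-/- cells, to 424 ± 67.7 (1.78, adjusted p = 1.86e-09). Tubb6 fell in Pkd1-/- cells (−0.33). Near-identical tubulin copies can share reads, so how these counts divide between them is uncertain.

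The tyrosinated tubulin tail that CAP-Gly domains bind is cut by vasohibins with their chaperone Svbp and restored by the ligase Ttl. Of 4 such genes 3 were tested, and 33.3% passed in Pkd1-/- and 66.7% in Pkd2-/- cells, beside 27.1% and 42.3% of all genes. Vash2 fell from 695 ± 23.7 in Wt to 445 ± 24.3 in Pkd1-/- (−0.64, adjusted p = 8.42e-07) and 352 ± 23.6 in Pkd2-/- cells (−0.98, adjusted p = 1.21e-09). Svbp fell in Pkd2-/- cells (−0.48), and Ttl, which the naming rule does not cover, measured 996 ± 83.2, 993 ± 41.7 and 1010 ± 32.9, with neither difference passing the test. Of 6 minus-end genes, Tubg1 was higher in Pkd1-/- cells (0.29), and Camsap1 (0.58) and Camsap2 (0.52) were higher and Tubgcp2 (−0.18) lower in Pkd2-/- cells. The minus-end shares of 16.7% and 50% stand beside 27.1% and 42.3% of all genes.

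Of 13 tested structural microtubule-associated, stathmin and severing genes, 7 were higher and 0 lower in Pkd1-/- cells (9 and 1 at an unadjusted p in limma), and 3 were higher and 4 lower in Pkd2-/- cells. This is 53.8% in each mutant, beside 27.1% and 42.3% of all genes. Mapt, which encodes tau, rose from 19.8 ± 5.38 in Wt to 165 ± 27.7 in Pkd1-/- (3.02, adjusted p = 2.18e-09) and 54.5 ± 11.5 in Pkd2-/- cells (1.43, adjusted p = 1.72e-05). Map1a rose in Pkd1-/- cells, from 27.0 ± 8.29 to 61.2 ± 9.81, and Map1b rose in both mutants: it measured 138 ± 10.2 in Wt, 261 ± 26.6 in Pkd1-/- and 509 ± 91.4 in Pkd2-/- cells. Map2 measured 575 ± 61.4 in Wt and 786 ± 38.0 in Pkd1-/- libraries, and 0 or 1 in every Pkd2-/- library. Stmn1 rose in Pkd1-/- (0.14) and fell in Pkd2-/- cells (−0.40). Map2 thus approached 0 in Pkd2-/- cells as Clip3 did, but not in Pkd1-/- cells.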

How the data were processed

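RNA-seq of 12 mIMCD3 libraries was read from a table that the authors deposited, with read counts per gene divided by DESeq2 size factors and rounded to whole numbers, a normalized score and not raw counts. Trim Galore, FastQC, HISAT2, HTSeq, DESeq2 and StringTie are named in the submitters' notes, which list both mm10 and mm9, while the methods give GRCm38. The strand setting is not given in the sources used here. Because raw depth is unknown, a count test was not applied and no counting intervals are given.

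Ensembl identifiers were matched to GENCODE M21 (47223 of 47642), whose coordinates are printed. Genes with a mean of at least 1 (18552) were fitted as log2(normalized count + 1) with limma 3.58.1 in R 4.3.3, all 12 libraries in 1 model with a variance trend, two-sided, with Benjamini-Hochberg adjustment within each comparison. Fold changes on this scale understate changes of low genes. The fit was tested on simulated data in which few genes changed, and changed alike in both mutants, unlike in these data. Levels per kb were divided by all annotated exon bases. RefSeq promoter sequences (GRCm38.p6) matched 8 of the 10 genes.

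The genes, lists and comparisons were chosen with earlier results of these data known. Within each list of related genes, the genes named were up to 2 with the largest log2 difference in each direction and mutant, among those past the test with a mean of at least 10. Genes within 100 kb of Clip3 were described where their mean was at least 1. For likeness to Clip3 the 5 highest correlations were named, and for near loss the 5 highest Wt levels. The alternatives were pseudocounts of 0.5 and 5, a minimum mean of 10 or none, upper-quartile rescaling, no variance trend, only the genotypes compared, the replicate number as a block, a fold change threshold, and leaving out each library. Dishes had been selected for sequencing by RNA purity.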

Additional observations from a re-analysis of the deposited data

Results flagged for a closer look

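Of 294 groups of 4 libraries over 98 genes, 5 held a library far from the other 3 by Dixon's criterion at the 95% level, where chance gives about 1 in 20, and 0 of these were among the plus-end genes. Top2a measured 20034 in Wt replicate 1 against 15583 to 16129 in the other Wt libraries, and Selenop 1718 in the same library against 1532 to 1560. Gata3 measured 176 in Wt replicate 2 against 236 to 248. In Pkd2-/- cells Camsap1 measured 1756 in replicate 4 against 1418 to 1441, and Tubb3 525 in replicate 3 against 384 to 397. Among the plus-end genes, Clip2 moved in opposite directions in the mutants, by a log2 difference of 0.20 in Pkd1-/- and −0.36 in Pkd2-/- cells against Wt. The difference between the mutants, −0.56, was itself tested (adjusted p = 5.31e-07 in limma).

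Among the related genes named, 12 others moved in opposite directions in the mutants, with both differences from Wt and the difference between the mutants past limma's test. Most had been named for large differences in a mutant, so their number is no rate, and the share of all genes with this pattern was not counted. Listed genes that were not named, such as Slain2 and Nde1, showed it too. Higher in Pkd2-/- than in Pkd1-/- cells were Lrp2 (by a log2 difference of 4.36), Nav2 (2.92), Gata3 (2.84), Tubb3 (2.61), Phldb2 (1.18), Kank1 (0.88) and Cdh16 (0.53). Lower in Pkd2-/- than in Pkd1-/- cells were Slc2a4 (−2.39), Kank2 (−0.65), Stmn1 (−0.55), Rac1 (−0.41) and Mcm5 (−0.39).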

How the results depend on the processing

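With the additional threshold of 1 on the log2 fold change, 1158, 1785 and 2182 genes remained of 5020, 7852 and 8588 in Pkd1-/- against Wt, Pkd2-/- against Wt and Pkd2-/- against Pkd1-/-. Of the 8 tested plus-end genes other than Clip3, 0 remained in each comparison, instead of 3, 4 and 6. Clip3 is left out of these counts, since its values chose the set. Leaving out each library in turn gave 4314 to 5266, 7230 to 7921 and 8023 to 8625 genes, and 2 to 3 and 4 plus-end genes against Wt. Between the mutants Clip1, Clip2, Mapre1, Mapre3 and Dctn1 passed in all 20 alternatives other than that threshold, and Mapre2 in 13. The other settings gave 4390 to 5322, 7310 to 8048 and 8057 to 8782 genes. Clip3 stood at 1.13% to 1.34% of Wt in Pkd1-/- and at 0.0924% to 0.185% in Pkd2-/- cells when each library was left out. Without Clip3, the number of plus-end genes whose ranges do not overlap was 1 to 3, 5 and 5 to 6 when each library was left out, and 3 in Pkd1-/- against Wt after upper-quartile rescaling.

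Of the plus-end genes' log2 differences, 280 of 300 kept direction and call when a library was left out, and 193 of 200 in the other settings. Leaving out a library of the third genotype leaves the difference itself unchanged, so only the call could change there. The same holds for the filters, the block, the fit without the variance trend and that of only the genotypes compared. Both tallies also count the difference of Clip3 between the mutants, whose values chose the set and which is no evidence of stability. Those that changed direction lay near 0. With each library left out in turn, Clip1 in Pkd1-/- against Wt ranged from −0.0156 to 0.103, Clasp2 in Pkd2-/- against Wt from −0.0298 to 0.0882, and between the mutants Clasp1 from −0.0591 to 0.0623 and Clasp2 from −0.0880 to 0.0230. After upper-quartile rescaling Clasp2 in Pkd2-/- against Wt was at −0.0036 and Clasp1 between the mutants at −0.0397. Dctn1 in Pkd1-/- cells passed the test with a minimum mean of 10 (adjusted p = 0.0493) and after rescaling (0.0389). Mapre2 between the mutants was lost without a filter (0.0514), with only the genotypes compared (0.076) and without the variance trend (0.0767). The cause was not tested.

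The replicate numbers did not pair the libraries throughout. Deviations of same-numbered libraries correlated from −0.07 to 0.20, and those of other pairs from −0.20 to 0.11. Of 12 same-numbered pairs 2 were over 0.1: Pkd2-/- replicate 4 with Wt replicate 4 (0.20) and with Pkd1-/- replicate 4 (0.17). The 3 libraries that correlated best with their own number were these replicates 4. What they share was not tested. With the replicate number as a block, 5322, 8048 and 8782 genes were called, and 3 and 4 plus-end genes against Wt. The length of the longest coding transcript was added as an alternative after seeing the data.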

Other observations

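Other marker lists held values that moved with genotype, and their part in the plus-end genes' values was not tested. Of 11 tested collecting duct markers, 0 were higher and 2 lower in Pkd1-/- cells, and 7 were higher and 2 lower in Pkd2-/- cells by limma's test (0 higher in Pkd1-/- cells also at an unadjusted p). These shares of 18.2% and 81.8% stand beside 27.1% and 42.3% of all genes. The transcription factor gene Gata3 measured 227 ± 34.3 in Wt, 48.5 ± 5.75 in Pkd1-/- and 354 ± 58.5 in Pkd2-/- cells. Of 5 proximal tubule markers only Lrp2, the endocytic receptor megalin, was tested, with means of 508 in Wt, 46.2 in Pkd1-/- and 934.5 in Pkd2-/- cells. Among 5 immune markers, of which 3 were tested, Csf1r gave nearly all of the level, at 880.5, 479 and 734. Of the neuronal markers 3 of 7 were tested, with 1 higher in Pkd1-/- and 1 lower in Pkd2-/- cells, and of the fibroblast markers 4 of 6, with 1 lower in Pkd2-/- cells. The single endothelial marker tested did not pass in either mutant, also at an unadjusted p.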
